A study of Mus musculus with 36 samples.

Results

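The 10 genes described here encode UDP-glucuronosyltransferases of the mouse kidney. They were taken by symbol from the 55536 genes of the count tables: Ugt1a1, Ugt1a2, Ugt1a6a, Ugt1a7c, Ugt1a9 and Ugt1a10 from the Ugt1a locus, and Ugt2b5, Ugt2b34, Ugt2b35 and Ugt2b38 from the Ugt2b cluster. All 10 passed the filter on low counts and were among the 18180 genes tested. Another 12 Ugt genes are annotated, of which 8 were tested.

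Mouse kidneys were profiled by RNA sequencing in 36 libraries, 6 in each of 6 groups. The question was how the kidney transcriptome follows the dose of cadmium chloride (CdCl2) in obese and in lean mice. All mice carry the strain label C57BL/6. The groups named b6j are normal C57BL/6 mice and the groups named ob are ob/ob mice, which lack working leptin and become obese. In each genotype 1 group was untreated (b6j_control, ob_control), 1 received CdCl2 at 0.5 mg/kg (b6j_Cd0.5, ob_Cd0.5) and 1 at 2 mg/kg (b6j_Cd2, ob_Cd2). Age, sex, route and length of treatment are not given in the sources used here, nor whether both genotypes came from 1 colony, so the leptin genotype and a difference of colony cannot be told apart. The labels do not say whether each library is a separate mouse, so p-values measure the spread between these libraries. Libraries held 26783936 to 37244058 counted reads. Levels are CPM, read counts divided by the library size as scaled by edgeR, in the usual CPM units. A change is a log2 ratio ± its standard error, and a gene is said to have risen or fallen where the quasi-likelihood test of edgeR, adjusted over the 18180 genes by Benjamini-Hochberg, gave a p below 0.05.

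UDP-glucuronosyltransferases sit in the endoplasmic reticulum and transfer glucuronic acid from UDP-glucuronic acid to small lipid-soluble molecules, which then leave the cell through export pumps and the body in urine or bile. Substrates include bilirubin, phenols, steroids, bile acids and many drugs. The Ugt1a genes are alternative first exons that are each joined to the same set of downstream exons, so each enzyme has its own substrate-binding part and all share the part that binds UDP-glucuronic acid. The Ugt2b genes are separate genes that arose by duplication. In the kidney these enzymes are mostly found in the proximal tubule, the segment in which cadmium also accumulates. Transcription of Ugt genes is known to respond to the xenobiotic sensors AhR, CAR and PXR and to the antioxidant factor NRF2.

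The layout of the genes decides what each count can show. In GRCm38 the 9 annotated Ugt1a genes lie on chromosome 1 between 88055388 and 88220002 on the plus strand and share 1311 exonic bases. Per the file headers a read that overlaps more than 1 gene was not counted, so a Ugt1a gene was counted only on bases it does not share. Ugt1a2 kept 900 such bases, Ugt1a9 879 and Ugt1a10 809, all of their own first exons. Ugt1a1 kept 385 bases, because most of its first exon overlaps the antisense gene Gm20528, and counting ignored strand. Ugt1a7c kept 1915 bases, of which 998 extend the shared last exon, so its count can hold reads of any Ugt1a transcript that runs that far. Most of the 2142 bases of Ugt1a6a lie between the shared exons, in introns that an annotated transcript retains. Its own first coding exon is also annotated to Ugt1a7c and was not counted. The counts of Ugt1a7c and Ugt1a6a are therefore not those of the enzymes of these names alone.

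On chromosome 5 the Ugt2b members share no exon with another gene. Ugt2b34 lies at chr5:86889767-86906937 and Ugt2b35, on the plus strand, at chr5:87000860-87013275. Ugt2b5 lies at chr5:87124960-87140318 and Ugt2b38 at chr5:87409942-87424203, both on the minus strand. The coding sequences of Ugt2b5 and Ugt2b38 are 97.0% identical, and both are close to Ugt2b37, which is 94.7% identical to Ugt2b5. Of all stretches of 75 bases in the coding sequence, 35.8% for Ugt2b5 and 33.5% for Ugt2b38 also occur in another Ugt gene. A read that lies within such a stretch could match more than 1 place and stay uncounted. For Ugt2b34 that share is 2.4% and for Ugt2b35 it is 0.0%. The 75 bases were chosen for this comparison and need not be the length of the reads. Levels of Ugt2b5 and Ugt2b38 may thus be partial, and their split is less certain than the levels of Ugt2b34 and Ugt2b35.

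RefSeq promoters of GRCm38.p6 were found for all 10 genes. The 5 printed here are those of close gene pairs that differed in response, as the values below show, and of the gene with the widest change. Each is the 250 bases before the RefSeq start, 5′ to 3′ on the strand of the gene. Capitals mark the longest run shared with a related promoter: between Ugt2b5 and Ugt2b38, between Ugt1a10 and Ugt1a9, and, for Ugt2b35, with Ugt2b5.
Ugt2b5: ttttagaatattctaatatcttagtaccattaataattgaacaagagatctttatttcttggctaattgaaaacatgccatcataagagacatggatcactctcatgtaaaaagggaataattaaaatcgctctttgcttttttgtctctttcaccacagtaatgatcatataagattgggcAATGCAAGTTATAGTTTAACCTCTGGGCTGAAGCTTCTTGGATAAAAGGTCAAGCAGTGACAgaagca
Ugt2b38: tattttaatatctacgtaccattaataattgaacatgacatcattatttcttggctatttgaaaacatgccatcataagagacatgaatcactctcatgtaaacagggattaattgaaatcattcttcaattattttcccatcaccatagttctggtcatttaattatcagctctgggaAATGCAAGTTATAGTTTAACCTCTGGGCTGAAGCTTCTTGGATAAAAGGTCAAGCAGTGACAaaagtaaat
Ugt1a10: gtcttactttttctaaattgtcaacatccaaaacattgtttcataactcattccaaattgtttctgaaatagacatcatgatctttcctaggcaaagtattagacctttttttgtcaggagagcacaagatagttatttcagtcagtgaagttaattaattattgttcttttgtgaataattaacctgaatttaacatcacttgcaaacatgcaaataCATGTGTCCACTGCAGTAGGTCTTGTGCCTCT
Ugt1a9: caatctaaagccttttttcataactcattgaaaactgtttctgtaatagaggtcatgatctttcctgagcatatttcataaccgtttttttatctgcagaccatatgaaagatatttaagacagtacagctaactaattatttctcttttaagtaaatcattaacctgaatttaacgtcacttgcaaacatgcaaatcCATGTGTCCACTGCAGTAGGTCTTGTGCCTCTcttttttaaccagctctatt
Ugt2b35: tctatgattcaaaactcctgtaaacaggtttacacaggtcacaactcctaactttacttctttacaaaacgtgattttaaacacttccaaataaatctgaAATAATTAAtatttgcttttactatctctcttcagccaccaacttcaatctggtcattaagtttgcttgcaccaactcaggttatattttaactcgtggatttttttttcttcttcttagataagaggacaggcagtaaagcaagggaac
The intervals are chr5:87140341-87140590 for Ugt2b5, chr5:87424204-87424453 for Ugt2b38, chr1:88055161-88055410 for Ugt1a10, chr1:88070529-88070778 for Ugt1a9 and chr5:87000610-87000859 for Ugt2b35.

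Ugt2b5 and Ugt2b38 shared a run of 62 identical bases, at -68 to -7 of Ugt2b5 and -71 to -10 of Ugt2b38, and 88.3% of 240 aligned bases were identical. Ugt1a10 and Ugt1a9 shared 32 identical bases, at -32 to -1 and -52 to -21, with 81.9% of 227 aligned bases identical. The longest run that Ugt2b35 shared with Ugt2b5 was 9 bases, with 65.0% of 220 aligned bases identical. On both strands of the 250 bases, no member held the NRF2 core TGACNNNGC, present in 10.2% of the 32851 RefSeq promoters, or the AhR core GCGTG, present in 28.2%. The pattern TGCNCNC is looser than the metal response element core and can overlap the AhR core. It occurred at -242 and -193 of Ugt1a2, -132 of Ugt1a10 and -123 of Ugt2b34, and in 44.4% of all promoters. A match to it need not be a metal response element. These matches describe the letters of this window only.

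The tissue label fitted the markers: all 14 proximal tubule and all 10 distal and collecting duct markers were detected in every group. ob_Cd2 replicate 5 stood apart. On the second principal component it lay at 132.02, with the other 35 libraries between -31.75 and 17.65. Its summed proximal tubule markers were 2994 CPM, against 15953 to 62637 CPM in the others, and the phosphate transporter gene Slc34a1 was at 16.6 CPM against at least 3024 CPM. Its summed injury markers were 16065 CPM, against at most 4221 CPM elsewhere, and its urothelium markers 398 CPM, against at most 62.3 CPM. Among the members it was lowest of its group for Ugt1a2 (10 against 90.9 to 160 CPM), Ugt1a6a, Ugt2b5, Ugt2b34, Ugt2b35 (39.4 against 104 to 267 CPM) and Ugt2b38 (24.9 against 171 to 235 CPM). Its Ugt1a9 and Ugt1a7c lay within the range of its group. Member results whose call depends on this library are given below with and without it.

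**Figure D1:**
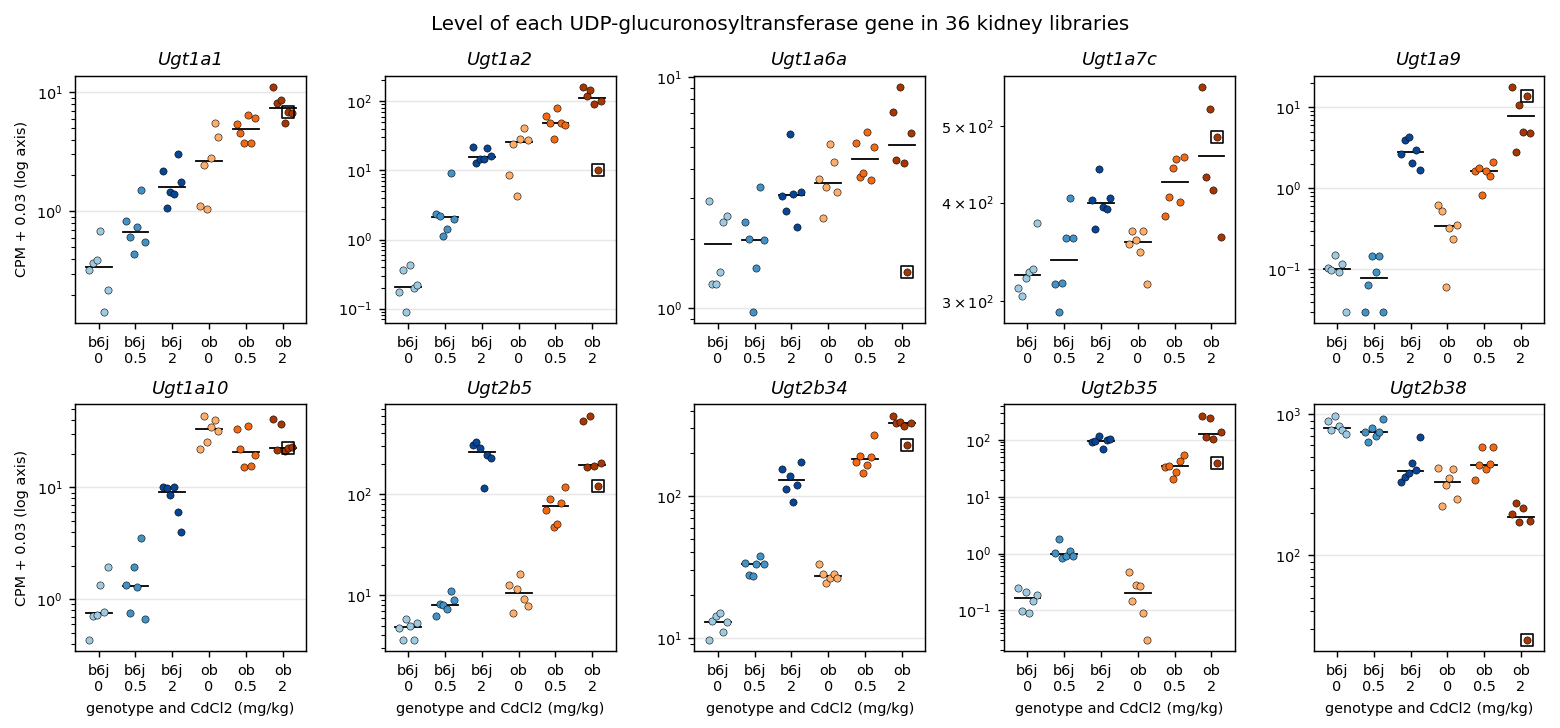
CPM of each of the 10 genes in the 36 libraries on log axes, with 0.03 CPM added so that libraries at 0 can be drawn; points are libraries, bars are group medians, and the square marks ob_Cd2 replicate 5. Ugt2b35 is at most 0.443 CPM in both control groups and at least 39.4 CPM in every library at 2 mg/kg, while Ugt2b38 is lowest in ob_Cd2, at 24.9 to 235 CPM.

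Before any cadmium the kidney carried high levels of few of these genes. Per kilobase of unshared exon, Ugt2b38 led in b6j controls at 438 ± 49.4 CPM (SD, n = 6), and Ugt1a7c followed at 171 ± 13.5 CPM. The other 8 members were at most 2.93 CPM per kilobase, the value of Ugt2b34. In ob controls Ugt1a7c, at 184 ± 10.4 CPM per kilobase, and Ugt2b38, at 172 ± 41.6, did not differ beyond their spread. Ugt1a10 came next at 40.8 ± 10.2 and Ugt1a2 at 24.8 ± 15.1 CPM per kilobase. The order of the lower members thus differed between the genotypes.

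Of the 10 members 7 were higher and 1 was lower in ob than in b6j controls, where 15.5% of all tested genes differed, 6.6% higher and 8.93% lower. The median change of the members was 1.16 against 0.03 for all genes. The widest differences were those of Ugt1a2 and Ugt1a10, whose own first exons were close to silent in b6j controls. Ugt1a2 ranged from 0.0605 to 0.404 CPM with a median of 0.179 in b6j controls and from 4.21 to 40.7 CPM with a median of 25.8 in ob controls. The groups were far apart, by 6.67 ± 0.70 on the log2 scale (adjusted p = 1.18e-08). The 6 b6j controls held 41 reads of Ugt1a2 in all, so the size of differences from them is less certain than their direction. Ugt1a10 ranged from 0.4 to 1.91 CPM (median 0.717) in b6j and from 22.2 to 43.8 CPM (median 33.3) in ob, a difference of 5.10 ± 0.37 (adjusted p = 3.25e-12).

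Ugt1a1, the main bilirubin-conjugating enzyme, had medians of 0.313 CPM in b6j controls and 2.61 CPM in ob controls. Every ob library lay above every b6j library, and the difference was 3.11 ± 0.39 (adjusted p = 3.81e-07). Ugt1a9 was barely detected in either, with 13 reads over the 6 b6j controls and 64 over the 6 ob controls. Its difference was 2.18 ± 0.63 (adjusted p = 0.0139), on levels near the 0.0851 to 0.112 CPM that 3 reads are worth. Ugt1a6a differed by 0.92 ± 0.31 (adjusted p = 0.0372), a call that 7 of 22 alternative analyses lost. Ugt1a7c differed by 0.10 ± 0.08 and did not pass the test (adjusted p = 0.478).

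Among the Ugt2b genes, Ugt2b34 was 2.2 times as high in ob controls, at 27.8 ± 2.95 CPM against 12.6 ± 2.02 CPM (SD, n = 6), and the groups did not overlap. The log2 difference was 1.14 ± 0.14 (adjusted p = 3.54e-07). Ugt2b5 was higher by 1.19 ± 0.32 (adjusted p = 0.00898). Ugt2b38, the most abundant member, was the exception: it ranged from 719 to 975 CPM in b6j controls and from 223 to 412 CPM in ob controls, and was lower in ob by a log2 difference of -1.35 ± 0.27 (adjusted p = 0.000377). Ugt2b35 was at 25 reads over the b6j controls and 36 over the ob controls, and its difference of 0.46 ± 0.87 did not pass the test.

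At 0.5 mg/kg in b6j mice 3 members rose and none fell, where 0.325% of all tested genes changed, 0.297% up and 0.0275% down. Ugt2b34 rose from 12.6 ± 2.02 to 32 ± 4.04 CPM, by 1.34 ± 0.14 (adjusted p = 1.31e-07), with every treated library above every control. Ugt1a2 rose by 3.80 ± 0.77 (adjusted p = 0.0102), from the levels above to 1.11 to 9.28 CPM with a median of 2.05. The highest value, in replicate 5, was far above the 1.11 to 2.33 CPM of the other 5 libraries, and 3 of 22 alternative analyses lost the call. Ugt2b35 rose by 2.98 ± 0.62 (adjusted p = 0.0131), to 0.821 to 1.79 CPM, and 2 of 22 alternatives lost it. The other 7 members did not pass the test. Ugt2b5 had a median of 4.82 CPM in controls and 8.01 CPM at 0.5 mg/kg with no overlap between the groups, yet its change of 0.83 ± 0.32 had an adjusted p of 0.573.

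At 0.5 mg/kg in ob mice 4 members rose and none fell, where 4.28% of all tested genes changed, 3.55% up and 0.737% down. Ugt2b35, at 0 to 0.443 CPM in ob controls, reached 20.1 to 53.4 CPM with a median of 34.2. This was the largest change, of 7.56 ± 0.45 (adjusted p = 4.62e-15). Ugt2b5 went from 6.64 to 16.1 CPM (median 10.4) to 47.8 to 119 CPM (median 75.9), a rise of 2.85 ± 0.32 (adjusted p = 5.41e-08). Ugt2b34 went from 24.2 to 32.9 CPM (median 27.4) to 146 to 271 CPM (median 182), a rise of 2.77 ± 0.15 (adjusted p = 2.84e-16). For these 3 Ugt2b genes the groups did not overlap. Ugt1a9 rose by 2.23 ± 0.45 (adjusted p = 0.00123), to 1.54 ± 0.436 CPM.

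Other members of the low-dose ob group did not pass the test in the fit of all libraries. Ugt1a2 had means of 22.3 ± 13.6 CPM in controls and 52.3 ± 17.6 CPM at 0.5 mg/kg, with a change of 1.22 ± 0.44 (adjusted p = 0.127), and the log2 difference of Ugt1a7c was 0.27 ± 0.08 (adjusted p = 0.0596). Although ob_Cd2 replicate 5 belongs to another group, it enters the shared estimate of spread, and its removal raised the count of members that rose from 4 to 7. The added genes were Ugt1a2 (adjusted p = 0.018), Ugt1a7c (0.0327) and Ugt2b38 (change 0.51 ± 0.15, 0.0252). Here and below, shares of all tested genes are those of the fit of all libraries. Counts without this library therefore have no such share beside them. Ugt1a10 was at 33 ± 8.28 CPM in ob controls and 23.4 ± 8.79 CPM at 0.5 mg/kg, a change of -0.49 ± 0.29 that did not pass the test (adjusted p = 0.45).

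At 2 mg/kg 9 of 10 members changed in b6j mice, 8 up and 1 down, where 23.7% of all tested genes changed, 12.3% up and 11.4% down. The median change of the members was 3.22 against 0.02 for all genes. In ob mice 8 changed, 7 up and 1 down, where 38.4% of all tested genes changed, 20.4% up and 18% down, with medians of 1.84 and 0.01. Without ob_Cd2 replicate 5 the counts were 10 in b6j and 9 in ob, the added gene being Ugt1a6a in both. Calls outside the members also changed without it, as the marker counts below show. The following gives the members in turn.

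Ugt2b35 changed most. It went from 0.0621 to 0.218 CPM in b6j controls to 67.7 to 117 CPM (median 96.6) at 2 mg/kg, a rise of 9.46 ± 0.47 (adjusted p = 1.91e-17). In ob mice it reached 39.4 to 267 CPM (median 124), a rise of 9.65 ± 0.45 (adjusted p = 4.38e-18), or 9.86 ± 0.36 without replicate 5. All 12 libraries at 2 mg/kg thus stood far above all 12 controls. Since the controls lie near the level that 3 reads are worth, the size of these changes is less certain than their direction.

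Ugt2b5 rose from 3.55 to 5.75 CPM in b6j controls to 116 to 331 CPM (median 264), which is 54.1 times the mean, with a log2 change of 5.76 ± 0.36 (adjusted p = 1.6e-14). In ob mice it rose to 119.7 to 601 CPM (median 197), by 4.85 ± 0.34 (adjusted p = 3.07e-13), or 5.02 ± 0.31 without replicate 5. Within ob_Cd2 the values fell into 2 ranges: replicates 1 and 3 were at 535 and 601 CPM and the other 4 at 204 CPM or less. Ugt2b34 rose to 91.4 to 175 CPM (median 129) in b6j, by 3.39 ± 0.15 (adjusted p = 1.13e-18), and to 228 to 369 CPM (median 328) in ob, by 3.51 ± 0.15 (adjusted p = 3.71e-19), or 3.59 ± 0.14 without replicate 5. Neither pair of groups overlapped, and in ob the SD of 47.2 CPM was small beside the 206 CPM of Ugt2b5.

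Ugt2b38 fell. In b6j mice it was at 332 to 689 CPM (median 392) at 2 mg/kg, all below the lowest control of 719 CPM, with a change of -0.93 ± 0.26 (adjusted p = 0.00876). In ob mice it was at 24.9 to 235 CPM (median 185), with a change of -0.94 ± 0.26 (adjusted p = 0.00473). Without replicate 5 the ob change was -0.71 ± 0.16 (adjusted p = 0.000489), and 1 of 21 alternatives, the fit of these groups alone, lost the call. The fall from the low to the high dose in ob was -1.46 ± 0.27 (adjusted p = 0.000111), or -1.22 ± 0.16 without that library, and the 2 dose groups did not overlap. So Ugt2b5 and Ugt2b38, whose promoters share the 62-base run printed above, changed in opposite directions in the same libraries.

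The summed proximal tubule markers were also lower at 2 mg/kg. Their median went from 56726 CPM (range 48913 to 62637) in b6j controls to 33921 CPM (26534 to 39399), and from 30085 CPM (27595 to 38744) in ob controls to 16354 CPM (2994 to 24445). Of the 14 markers 3 fell in b6j and 7 in ob, and none rose, where 11.4% and 18% of all tested genes fell. With ob_Cd2 replicate 5 left out the counts were 12 and 8. The fall was not limited to the proximal tubule. Of 10 distal and collecting duct markers 3 fell in b6j and 8 in ob, and none rose. These counts were 5 and 6 without that library. Their summed median was 5724 CPM in b6j controls and 5484 CPM at 2 mg/kg, and 6135 and 4439.8 CPM in ob. Between the controls 5 of the 14 proximal tubule markers were lower in ob and none was higher. With ob_Cd2 replicate 5 left out 8 were lower and 3 higher. Ugt2b38 was lower in ob controls as well. In whole kidney fewer cells of a type and less RNA per cell cannot be told apart. The part of these markers in the lower Ugt2b38 was not tested.

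Among the Ugt1a genes at 2 mg/kg, Ugt1a9 went from 0 to 0.121 CPM in b6j controls to 1.66 to 4.27 CPM (median 2.8), a rise of 5.34 ± 0.55 (adjusted p = 3.6e-09). In ob mice it went from 0.0309 to 0.601 CPM to 2.8 to 17.8 CPM (median 7.84), a rise of 4.80 ± 0.46 (adjusted p = 3.47e-10), or 4.65 ± 0.44 without replicate 5. Neither pair of groups overlapped. Ugt1a2 rose to 12.8 to 21.7 CPM (median 15.5) in b6j, by 6.26 ± 0.70 (adjusted p = 2.43e-08). In ob it reached 10 to 160.3 CPM (median 111), a rise of 2.23 ± 0.45 (adjusted p = 0.000191), or 2.48 ± 0.36 without replicate 5. With that library left out the ob libraries at 2 mg/kg all lay above the ob controls.

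Ugt1a10 rose in b6j, to 3.96 to 10.1 CPM (median 9.1), by 3.06 ± 0.36 (adjusted p = 4.62e-08). In ob it was at 21.1 to 41.1 CPM (median 22.7), inside the range of the controls but for 2 libraries below it, and the change of -0.25 ± 0.29 did not pass the test (adjusted p = 0.511). Ugt1a1 rose to 1.04 to 2.98 CPM (median 1.57) in b6j, by 2.44 ± 0.39 (adjusted p = 1.4e-05), and to 5.5 to 11 CPM (median 7.4) in ob, by 1.45 ± 0.33 (adjusted p = 0.000637). Its group medians increased in the order b6j_control, b6j_Cd0.5, b6j_Cd2, ob_control, ob_Cd0.5 and ob_Cd2, and each group overlapped its neighbours in that order.

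Ugt1a7c and Ugt1a6a had log2 differences below 1 in both genotypes. Ugt1a7c rose from 328 ± 25.9 to 401 ± 23.2 CPM in b6j, by 0.29 ± 0.08 (adjusted p = 0.00988), and from 351 ± 19.9 to 463 ± 74.3 CPM in ob, by 0.40 ± 0.08 (adjusted p = 0.000293). For Ugt1a6a the values were 0.78 ± 0.31 in b6j (adjusted p = 0.0642) and 0.54 ± 0.30 in ob (adjusted p = 0.152). Without ob_Cd2 replicate 5 these became 0.77 ± 0.26 (adjusted p = 0.0191) and 0.75 ± 0.26 (adjusted p = 0.0204). The highest b6j value of Ugt1a6a, 5.65 CPM, was that of b6j_Cd2 replicate 3. Its summed adrenal markers were 111 CPM, against a group median of 5.39 CPM. Of 4 adrenal markers tested, 4 rose in b6j at 2 mg/kg and 1 in ob. Among all tested genes 12.3% rose in b6j and 20.4% in ob. The part of adrenal tissue in this value of Ugt1a6a was not tested. As set out above, the counts of Ugt1a7c and Ugt1a6a can both include transcripts of the other Ugt1a genes.

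**Figure D2:**
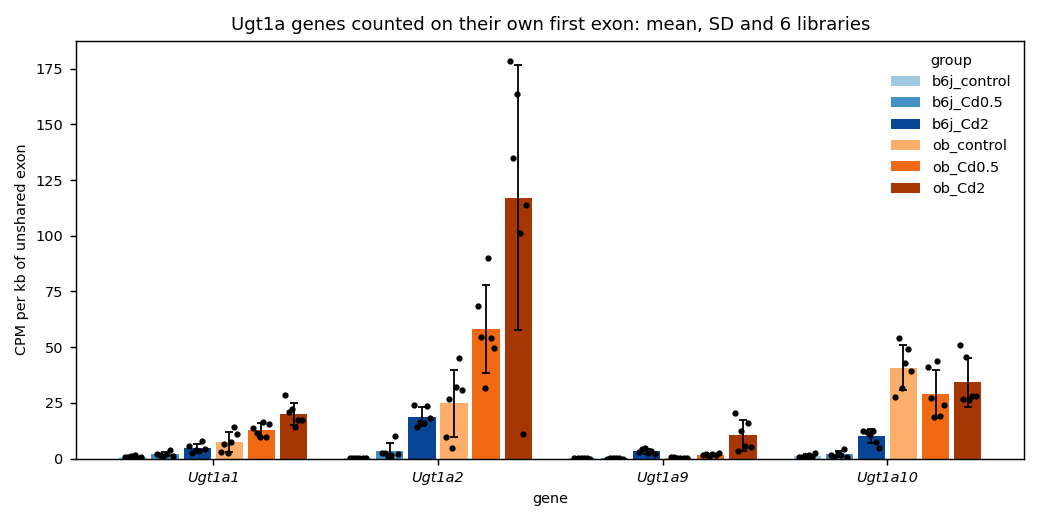
Level of the 4 Ugt1a genes counted on their own first exons, in CPM per kilobase of unshared exon; bars are means, lines the SD and points the 6 libraries of each group. The mean of Ugt1a2 is 18.8 CPM per kilobase in b6j_Cd2 and 117 in ob_Cd2, with ob_Cd2 replicate 5 low, while Ugt1a10 is at 40.8 CPM per kilobase in ob controls already.

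Per kilobase of unshared exon the order among these 4 genes differed with genotype and dose. In b6j at 2 mg/kg Ugt1a2 was at 18.8 ± 4.18 CPM, Ugt1a10 at 9.94 ± 3.15, Ugt1a1 at 4.62 ± 1.81 and Ugt1a9 at 3.32 ± 1.18, the last 2 within their spread. In ob controls Ugt1a10 led at 40.8 ± 10.2, and in ob at 2 mg/kg Ugt1a2 led at 117 ± 59.5, followed by Ugt1a10 at 34.2 ± 11, Ugt1a1 at 20.1 ± 5.03 and Ugt1a9 at 10.4 ± 6.8. All remained below Ugt1a7c, whose value of 242 ± 38.8 CPM per kilobase in ob at 2 mg/kg includes the extended last exon.

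The doses were also compared with each other. In b6j mice 8 members were higher and 1 lower at 2 than at 0.5 mg/kg, where 17.3% of all tested genes differed, 8.78% higher and 8.51% lower. Ugt1a6a was the member that did not pass, and the call of Ugt1a7c (0.23 ± 0.08, adjusted p = 0.0496) was lost in 12 of 22 alternatives, as was that of Ugt2b38 (-0.80 ± 0.26, adjusted p = 0.0316) in 7. In ob mice 4 members were higher, Ugt1a9, Ugt2b5, Ugt2b34 and Ugt2b35, and Ugt2b38 was lower, where 29.7% of all tested genes differed, 15.2% higher and 14.5% lower. With ob_Cd2 replicate 5 left out Ugt1a2 was higher as well (1.26 ± 0.35, adjusted p = 0.00575, against 1.01 ± 0.44 and 0.0785), which gave 5 higher and 1 lower in ob, and Ugt1a6a passed in b6j (0.72 ± 0.26, adjusted p = 0.0333). The step of Ugt2b35 was 6.48 ± 0.37 in b6j and 2.10 ± 0.28 in ob, and that of Ugt2b5 was 4.93 ± 0.35 and 2.00 ± 0.30. The difference between these steps was not tested.

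**Figure D3:**
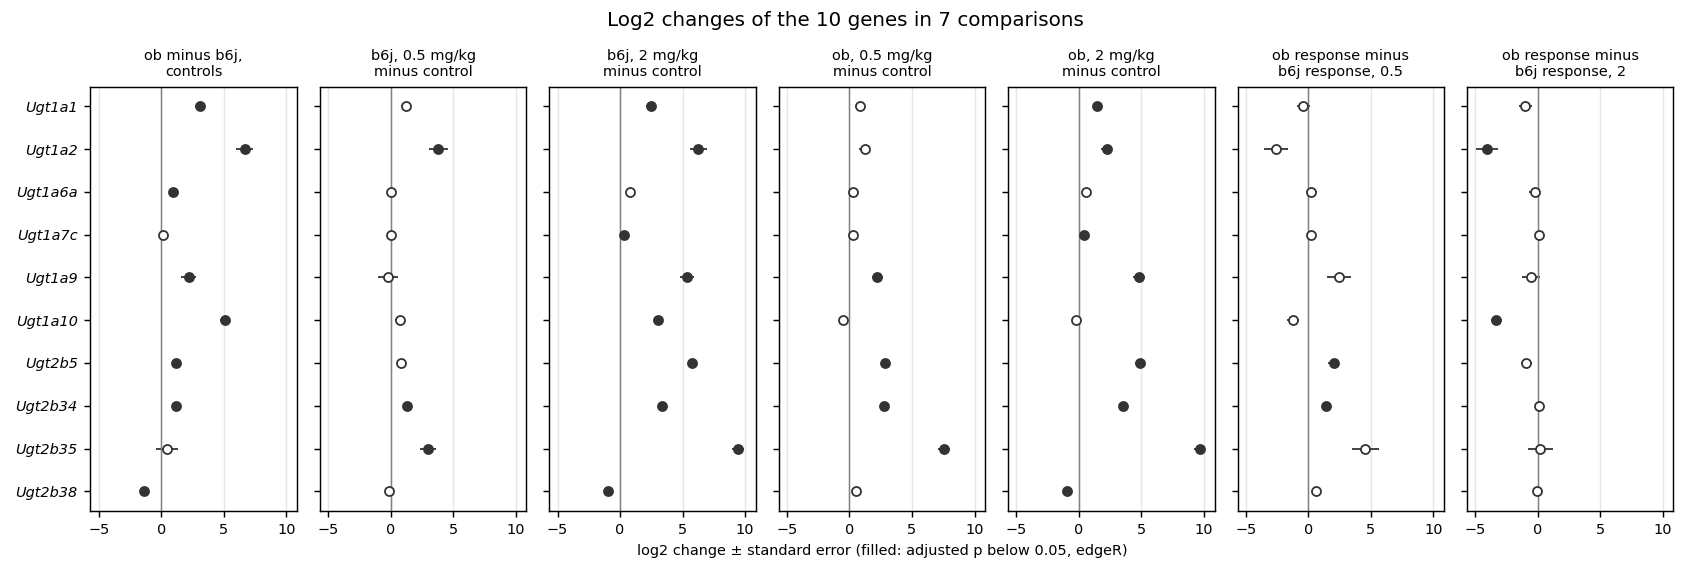
Log2 change ± standard error of each gene in 7 comparisons; filled points passed an adjusted p of 0.05 in the edgeR test. Ugt2b35 has the widest changes, at 9.46 in b6j and 9.65 in ob at 2 mg/kg, and Ugt1a2 and Ugt1a10 are the 2 filled points below 0 for the difference in response at 2 mg/kg.

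Whether ob mice responded differently from b6j mice was tested as the difference of the 2 log2 changes. At 0.5 mg/kg 2 members responded more in ob, where 0.385% of all tested genes passed, 0.369% with a larger and 0.0165% with a smaller response in ob. They were Ugt2b34, by 1.43 ± 0.20 (adjusted p = 5.86e-05), and Ugt2b5, by 2.02 ± 0.44 (adjusted p = 0.0249). The call of Ugt2b5 was lost in 6 of 34 alternatives. Ugt2b35 had the largest difference, 4.57 ± 1.11, and did not pass (adjusted p = 0.0534), but passed without ob_Cd2 replicate 5 (adjusted p = 0.0252). Hmox1, the stress-induced heme oxygenase, differed in the same direction by 3.27 ± 0.23 (adjusted p = 1.43e-11).

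At 2 mg/kg 2 members had a smaller log2 response in ob, where 2.07% of all tested genes passed, 1.06% with a larger and 1.01% with a smaller response in ob. They were Ugt1a2, by -4.03 ± 0.88 (adjusted p = 0.0101), and Ugt1a10, by -3.31 ± 0.46 (adjusted p = 4.79e-05). Without ob_Cd2 replicate 5 the values were -3.77 ± 0.80 (adjusted p = 0.004) and -3.25 ± 0.45 (adjusted p = 3.04e-05). The call of Ugt1a2 was lost in 1 of 33 alternatives, limma voom, and its size rests on the 41 reads of the b6j controls. In CPM the gain of Ugt1a2 was larger in ob. Its mean went from 22.3 to 105 CPM in ob and from 0.217 to 16.9 CPM in b6j. The mean of Ugt1a10 went from 33 to 27.6 CPM in ob and from 0.954 to 8.04 CPM in b6j. Both genes started far higher in ob controls, and both remained higher in ob at 2 mg/kg, by 2.64 ± 0.46 (adjusted p = 0.000139) and 1.78 ± 0.30 (adjusted p = 7.51e-05). For the 4 Ugt2b genes the differences at 2 mg/kg were between -0.91 and 0.19 and none passed the test.

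Within a dose, ob libraries were higher than b6j libraries for 9 members at 0.5 mg/kg, where 9.64% of all tested genes differed, 4.58% higher and 5.06% lower. The widest gaps were those of Ugt2b35 (5.03 ± 0.35), Ugt1a9 (4.65 ± 0.57), Ugt1a2 (4.09 ± 0.52) and Ugt1a10 (3.88 ± 0.34). The mean of Ugt2b38 was 466 ± 98.4 CPM for ob and 757 ± 99.4 CPM for b6j, a difference of -0.70 ± 0.26 (adjusted p = 0.0906), which passed without ob_Cd2 replicate 5 (adjusted p = 0.000629). At 2 mg/kg 5 members were higher in ob, Ugt1a1, Ugt1a2, Ugt1a9, Ugt1a10 and Ugt2b34, and Ugt2b38 was lower by -1.36 ± 0.27 (adjusted p = 0.000525), where 16.4% of all tested genes differed, 7.9% higher and 8.53% lower. Ugt2b5 and Ugt2b35 differed by 0.29 ± 0.29 and 0.65 ± 0.27 and did not pass, although without replicate 5 Ugt2b35 did (0.86 ± 0.20, adjusted p = 0.00268). Ugt1a6a passed without it too (0.90 ± 0.26, adjusted p = 0.0149, against 0.113 with all libraries), so that 7 members were higher. These comparisons share their groups with the comparisons by dose.

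**Figure D4:**
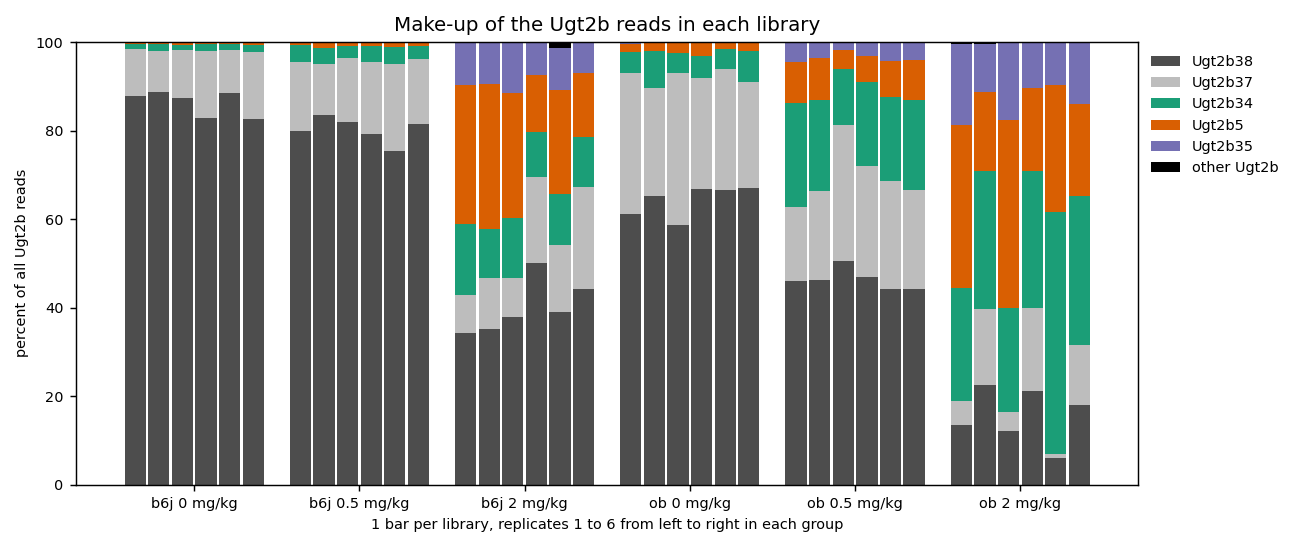
Share of all Ugt2b reads taken by each gene, 1 bar per library. Ugt2b38 takes 82.5% to 88.8% in b6j controls and 5.98% to 22.4% in ob_Cd2, where Ugt2b34, Ugt2b5 and Ugt2b35 take most of the rest.

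The make-up of the Ugt2b reads changed more than their sum. Ugt2b38 took 86.3% ± 2.85 of all Ugt2b reads in b6j controls (SD, n = 6) and 80.2% ± 2.81 at 0.5 mg/kg. At 2 mg/kg its share was 40.1% ± 6.01, and Ugt2b5 (23.9% ± 8.51), Ugt2b34 (12.3% ± 2.16) and Ugt2b35 (9.05% ± 1.7) followed, against 0.483%, 1.32% and 0.0138% in controls. In ob mice Ugt2b38 had 64.2% ± 3.45 in controls, 46.4% ± 2.37 at 0.5 mg/kg and 15.5% ± 6.22 at 2 mg/kg. At the high dose Ugt2b34 had 33.2% ± 11.2 and Ugt2b5 27.6% ± 10.3, which do not differ beyond their spread. Ugt2b34 was at 54.7% in replicate 5, while Ugt2b5 was the higher of the pair in replicates 1 (36.9% against 25.4%) and 3 (42.6% against 23.4%). These are shares of reads, which also depend on gene length, and reads that match several genes are missing from them.

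The summed Ugt2b reads were tested as 1 gene. They went from 959 ± 102 CPM in b6j controls to 1081 ± 237 CPM at 2 mg/kg, a change of 0.17 ± 0.19 (adjusted p = 0.57). In ob mice they went from 509 ± 129.5 CPM to 1006 ± 207 CPM at 0.5 mg/kg, a rise of 0.98 ± 0.19 (adjusted p = 0.00101), and to 1054 ± 374 CPM at 2 mg/kg, a rise of 1.05 ± 0.19 (adjusted p = 5.29e-05). The ob controls were lower than the b6j controls by -0.91 ± 0.19 (adjusted p = 0.000821), and at 2 mg/kg the genotypes differed by -0.04 ± 0.19 (adjusted p = 0.921). The difference in response was 0.88 ± 0.27 at 2 mg/kg (adjusted p = 0.0806), and 1.04 ± 0.21 without ob_Cd2 replicate 5 (adjusted p = 0.00289).

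The summed Ugt1a reads rose by 0.41 ± 0.09 in b6j (adjusted p = 0.00127) and 0.59 ± 0.09 in ob at 2 mg/kg (adjusted p = 5.3e-06), and were higher in ob than in b6j controls by 0.32 ± 0.09 (adjusted p = 0.0161). Ugt1a7c took 98.4% ± 0.189 of them in b6j controls and 74.7% ± 7.56 in ob at 2 mg/kg. The share of Ugt1a2 went from 0.0658% ± 0.0403 to 16.4% ± 7.24 between the same groups. Ugt1a10 had its highest share, 7.87% ± 1.54, in ob controls. Reads on the 1311 bases shared by all Ugt1a genes are missing from these sums. Ugt1a7c was counted on 1915 bases, 998 of them in the extended last exon, and Ugt1a2 on 900. The shares are thus not those of the Ugt1a transcripts.

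Of the 8 other Ugt genes tested, 3 rose and 1 fell in b6j at 2 mg/kg, and 2 rose and 1 fell in ob, where 23.7% and 38.4% of all tested genes changed. Without that ob library, ob_Cd2 replicate 5, the counts were 4 and 2 in b6j and 2 and 2 in ob. Ugt1a6b rose by 1.96 ± 0.28 in both genotypes, from 1.88 ± 0.665 to 7.33 ± 1.38 CPM in b6j and from 1.74 ± 0.512 to 6.78 ± 3.24 CPM in ob (adjusted p = 1.74e-06 and 9.07e-07). Ugt8a, which makes galactosylceramide and not glucuronides, fell by 0.52 on the log2 scale in b6j and by 0.83 in ob. Ugt2b37, the close relative of Ugt2b5, was at 80.6 to 152 CPM in b6j controls and 83.4 to 358 CPM at 2 mg/kg, and its log2 differences of 0.53 ± 0.43 in b6j and -0.41 ± 0.43 in ob did not pass the test. Ugt3a1, Ugt3a2 and Ugt2a3 did not pass it at 2 mg/kg either.

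Ugt2b1 and Ugt2b36, which are mainly known from liver, rose in b6j at 2 mg/kg by 2.17 ± 0.75 and 2.47 ± 0.86 (adjusted p = 0.0321 and 0.0332), and Ugt2b1 rose in ob by 3.05 ± 0.81 (adjusted p = 0.00289). b6j_Cd2 replicate 5 held 5.05 and 8.95 CPM of them, against at most 0.639 and 1.47 CPM in the other 5 libraries. The same library had 1526 CPM of summed liver markers, against 183 to 231 CPM in the others, with albumin (Alb) at 765 CPM against at most 29.3 CPM. In the other 5 libraries Ugt2b1 was at 0.311 to 0.639 CPM, against 0.0568 to 0.665 CPM in b6j controls. Ugt2b36 was at 0.406 to 1.47 CPM there, against 0 to 0.907 CPM in b6j controls. The rises in b6j include b6j_Cd2 replicate 5, and changes without it are not given here. The values of the members in that library lay within the range of its group, except Ugt1a1, at 2.98 CPM the highest, and Ugt1a6a, at 2.22 CPM the lowest.

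Among 9 genes for the supply of UDP-glucuronic acid, Ugdh, whose enzyme makes it from UDP-glucose, rose from 109 ± 17.2 to 399 ± 74.9 CPM in b6j at 2 mg/kg and from 136 ± 11.9 to 498 ± 173 CPM in ob, by 1.88 ± 0.15 in each (adjusted p = 1.52e-11 and 9.07e-12). In ob mice it rose already at 0.5 mg/kg, by 0.85 ± 0.15 (adjusted p = 0.000215). Of the 9 genes 3 rose and 3 fell in b6j at 2 mg/kg, with a median of -0.06, and 5 rose and 1 fell in ob, with a median of 0.32, where 23.7% and 38.4% of all tested genes changed. Ugp2, which makes UDP-glucose, rose by 0.75 ± 0.14 in b6j, Pgm2 rose by 0.63 ± 0.12 in b6j and 0.75 ± 0.12 in ob, and the glucose-6-phosphate carrier gene Slc37a4 fell by 0.75 and 0.91 on the log2 scale.

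Of 7 genes for the removal or breakdown of glucuronic acid, none rose at 2 mg/kg and 2 fell in b6j and 4 in ob, where 11.4% and 18% of all tested genes fell. These counts were 4 and 3 without ob_Cd2 replicate 5. Akr1a1, which reduces glucuronate, fell by 0.54 in b6j and 0.68 in ob on the log2 scale. Gusb, the lysosomal enzyme that cleaves glucuronides, did not pass the test for dose at 2 mg/kg (0.11 ± 0.10 in b6j, 0.24 ± 0.10 in ob). It was lower in ob than in b6j controls, at 25.6 ± 1.69 against 57.8 ± 10.7 CPM, a log2 difference of -1.18 ± 0.10 (adjusted p = 7.04e-11).

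Among 5 genes listed for heme breakdown to bilirubin, the substrate of Ugt1a1, Hmox1 rose from 45.7 ± 12.9 to 1311 ± 333 CPM in b6j at 2 mg/kg, by 4.84 ± 0.19 (adjusted p = 2.01e-20). In ob it rose from 26.6 ± 3.73 to 655 ± 81.3 CPM at 0.5 mg/kg and 1424 ± 390.0 CPM at 2 mg/kg. Blvrb, which encodes biliverdin reductase B, rose by 2.05 ± 0.24 in b6j and 2.34 ± 0.24 in ob at 2 mg/kg, and by 1.00 ± 0.23 in ob at 0.5 mg/kg (adjusted p = 0.00618). Blvra, which encodes biliverdin reductase A, fell by 0.27 on the log2 scale in both genotypes at 2 mg/kg. The 2 reductase genes thus went opposite ways, and bilirubin itself was not measured. In all, 2 of the 5 rose in each genotype at 2 mg/kg, and 2 fell in b6j and 1 in ob. Among all tested genes 12.3% rose and 11.4% fell in b6j, and 20.4% and 18% in ob.

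All 6 pumps that export glucuronides or other conjugates rose at 2 mg/kg, in b6j with a median of 0.84 and in ob with a median of 1.05. Of all tested genes 12.3% rose in b6j and 20.4% in ob. Abcc4 rose by 3.07 ± 0.16 in b6j (adjusted p = 7.65e-17) and 1.24 ± 0.15 in ob (adjusted p = 4.92e-08), and the response was smaller in ob by -1.83 ± 0.21 (adjusted p = 3.72e-06). Its level in ob controls, 235 ± 30.6 CPM, was above the 49.6 ± 11.7 CPM of b6j controls. Abcc2, on the apical membrane of the proximal tubule, rose by 0.99 ± 0.14 and 1.15 ± 0.14. Abcg2 rose by 0.45 ± 0.11 and 0.72 ± 0.11.

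Sulfotransferases, which compete for many of the same substrates, gave 2 rises and 2 falls among 8 tested genes in b6j at 2 mg/kg and 3 rises and 1 fall in ob, or 3 and 2 without ob_Cd2 replicate 5. Among all tested genes 23.7% changed in b6j and 38.4% in ob. Sult1b1 rose by 1.59 ± 0.13 in b6j and 2.03 ± 0.13 in ob (adjusted p = 2.15e-11 and 2.33e-14), and Sult1a1 fell by 0.51 and 0.59 on the log2 scale. Of 14 genes for factors known to control Ugt genes, 2 rose and 2 fell in each genotype at 2 mg/kg, where 23.7% of all tested genes changed in b6j and 38.4% in ob. Nr1i2, which encodes PXR, rose by 0.89 ± 0.19 in b6j and 0.70 ± 0.18 in ob, and Nr1i3, which encodes CAR, by 1.71 ± 0.60 and 1.42 ± 0.55. Nr1i2 was also higher in ob than in b6j controls, by 1.10 ± 0.19 (adjusted p = 5.3e-05). Hnf4a fell in ob by 0.61 on the log2 scale. Without ob_Cd2 replicate 5 the ob counts were 1 rise and 2 falls.

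Of 12 genes often used as readouts of these factors 7 rose in each genotype at 2 mg/kg and none fell. The share of all tested genes that rose was 12.3% in b6j and 20.4% in ob. The NRF2 targets Txnrd1 (1.55 ± 0.14 in b6j, 1.92 ± 0.14 in ob), Gclc (1.68 ± 0.19, 2.17 ± 0.19) and Nqo1 (1.28 ± 0.16, 1.16 ± 0.16) were among them. Cyp3a13 rose by 2.54 ± 0.42 in b6j. Cyp1a1, the usual readout of AhR, was at 1.52 ± 0.666 CPM in b6j controls and 1.81 ± 0.75 CPM at 2 mg/kg, and did not pass the test in b6j (0.25 ± 0.33) or ob (0.63 ± 0.32). In ob controls Gclm was lower than in b6j controls by -0.69 ± 0.11 and Nqo1 higher by 0.69 ± 0.16, so the NRF2 targets did not all differ the same way there.

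The members differed in how they followed each other across the 36 libraries. Pearson's r of log2 CPM was 0.96 between Ugt2b5 and Ugt2b35, 0.94 between Ugt2b34 and Ugt2b35 and 0.94 between Ugt1a1 and Ugt1a2, while Ugt1a10 and Ugt2b35 had 0.44. Ugt2b38 was negative with all 9 others, from -0.71 with Ugt1a9 to -0.32 with Ugt1a6a. The Ugt1a member with the widest range of group means was Ugt1a2, and the 5 genes most like it were Gm6135 (0.951), Gsta2 (0.946), Gc (0.942), Ugt1a1 (0.941) and Hfe (0.937). For Ugt2b35 they were Gm7893 (0.986), Gstm3 (0.985), Hmox1 (0.982), 9130409I23Rik (0.980) and Ces1a (0.970). These values describe libraries that share the 6 groups and the same scaling.

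Markers of other cell types moved in the same groups in part. Of 10 injury markers 6 rose in b6j and 9 in ob at 2 mg/kg, and their sum went from a median of 986 CPM (842 to 1153) to 2099.7 CPM (1862 to 2243) in b6j and from 1426 CPM (1249 to 1623) to 3110.3 CPM (2409 to 16065) in ob. With ob_Cd2 replicate 5 left out 8 injury markers rose in b6j and 9 in ob. For all tested genes the shares at 2 mg/kg were 12.3% up and 11.4% down in b6j, and 20.4% and 18% in ob. Of 9 leukocyte markers 4 rose in b6j, and 5 rose and 2 fell in ob. These leukocyte counts were 6, and 6 and 2, without that library. Of 12 liver markers 2 rose and 1 fell in b6j (4 and 1 without it), and 1 rose and 1 fell in ob, where the summed level was 228 to 493 CPM against 305 to 456 CPM in controls. At 0.5 mg/kg, where Ugt2b34, Ugt2b5 and Ugt2b35 rose in ob, 1 injury marker of 10 rose and no proximal tubule, leukocyte, liver, fat or urothelium marker was called. Without ob_Cd2 replicate 5, where 7 members rose, 2 injury, 1 proximal tubule and 1 liver marker rose and 1 distal marker fell. The part of these markers in the results on the members was not tested.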

How the data were processed

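Total RNA of snap-frozen kidneys was sequenced in 36 libraries. The deposited values are whole-number counts of reads per gene. Per the submitters' processing notes, reads were prepared with bcl2fastq, Trimmomatic and FastQC and aligned with STAR to GRCm38. Per the file headers, the authors counted exonic reads with featureCounts 1.4.6-p2 and the Ensembl 96 annotation at default settings, which ignore strand and leave out reads that overlap several genes. The per-library files were used. A joined table whose 36 columns carry codes was not.

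Counts were tested in R 4.3.3 with edgeR 4.0.16: filterByExpr by group kept 18180 genes, TMM factors were 0.892 to 1.122, and the legacy quasi-likelihood test was fitted on all 36 libraries with Benjamini-Hochberg adjustment. Libraries held 26783936 to 37244058 counts, so 3 counts were worth 0.0851 to 0.112 CPM. Of counts between 1 and 10, 77.8% were even, so both mates of a pair may have been counted and counts may exceed the number of fragments. The summed rows replaced all Ugt1a or Ugt2b genes before the fit. Alternatives used DESeq2 1.42.0, limma 3.58.1 (voom with sample weights), other scalings and filters, only the groups compared, a replicate block, each library left out, and, added after seeing the data, the newer quasi-likelihood method. The fit was checked on simulated counts. Named are all 10 members, all tested Ugt genes, up to 4 called genes of each list with the smallest p, and 6 genes in any case (Hmox1, Blvrb, Ugdh, Gusb, Nqo1, Cyp1a1). The 5 genes most like a member were taken by Pearson's r. The members and lists were chosen with earlier results of these data known. A result on 1 of the listed regulator genes is not reported here.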

Additional observations from a re-analysis of the deposited data

Results flagged for a closer look

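In 8 of the 60 sets of 6 libraries, 1 library lay far from the other 5. The cut-off is made for independent, normally distributed values, where it flags about 1 in 20 sets. Members were correlated across the libraries, so 8 of 60 cannot be set against that rate. In b6j_Cd0.5 replicate 5 Ugt1a1 was at 1.48 CPM, against 0.41 to 0.805 CPM in the others, and Ugt1a2 at 9.28 CPM, against 1.11 to 2.33 CPM. Ugt2b35 was at 1.79 CPM in b6j_Cd0.5 replicate 2, against 0.821 to 1.08 CPM. Ugt1a6a was at 5.65 CPM in b6j_Cd2 replicate 3, against 2.22 to 3.16 CPM. Ugt1a7c was at 377 CPM in b6j_control replicate 6, against 304 to 329 CPM, and Ugt2b34 at 271 CPM in ob_Cd0.5 replicate 6, against 146 to 192 CPM. Ugt2b38 was at 689 CPM in b6j_Cd2 replicate 6, against 332 to 453 CPM, and at 24.9 CPM in ob_Cd2 replicate 5, against 171 to 235 CPM.

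The response to cadmium differed between the genotypes by a test of the difference itself for 4 members. At 2 mg/kg the log2 response in ob minus that in b6j was -4.03 for Ugt1a2 and -3.31 for Ugt1a10. At 0.5 mg/kg it was 2.02 for Ugt2b5 and 1.43 for Ugt2b34.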

How the results depend on the processing

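Of the 110 member results 65 passed the test. Of these 52 passed under every alternative, 13 were lost under at least 1, and none that passed changed sign. Another 19 passed only under an alternative. The causes of the changes below were not tested, except that fewer libraries enter where some are left out.

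With the newer quasi-likelihood method 1 member was called in b6j at 0.5 mg/kg and 1 for the difference in response at that dose. With voom 1 member was called in b6j and 9 were called in ob at the low dose, and 1 for the difference in response at the high dose. Fitting only the groups compared gave 7 in ob at the low dose. Without ob_Cd2 replicate 5 that count was also 7, and the difference in response at 0.5 mg/kg gave 3.

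The summed Ugt1a reads in ob at 0.5 mg/kg passed at 0.31 with the newer method, the stricter filter and DESeq2, 0.29 with voom and 0.30 with only the groups compared. From 0.5 to 2 mg/kg in ob they lost the call with only the groups compared (0.31). The summed Ugt2b reads differed between genotypes at 2 mg/kg by 0.00 on library size alone and 0.12 with voom. Their difference in response passed at 0.5 mg/kg with voom (1.10), DESeq2 and only the groups compared (1.00 each), and at 2 mg/kg with voom (1.11) and DESeq2 (0.90). Uncalled members changed sign for Ugt2b35 between controls (-0.17, voom), Ugt1a6a in b6j at 0.5 mg/kg (-0.01, voom) and Ugt2b38 for the difference in response at 2 mg/kg (0.00 with DESeq2-style scaling and with DESeq2, 0.36 with voom).

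Leaving out 1 library at a time gave 4 to 7 members called in the low-dose ob group, and 1 to 3 for the difference in response at that dose. In b6j at 0.5 mg/kg it gave -0.16 to 0.20 for Ugt1a6a, -0.57 to 0.03 for Ugt1a9 and -0.08 to 0.03 for the Ugt2b sum. In ob it gave 0.27 to 0.33 for the Ugt1a sum at 0.5 mg/kg, and from 0.5 to 2 mg/kg 0.20 to 0.35 for the Ugt1a sum and -0.05 to 0.23 for the Ugt2b sum. Between genotypes the Ugt2b sum ranged from -0.01 to 0.15 at 0.5 mg/kg and from -0.15 to 0.13 at 2 mg/kg, and Ugt2b5 from -0.02 to 0.47 at 2 mg/kg. For the difference in response the Ugt2b sum ranged from 0.91 to 1.10 at 0.5 mg/kg and from 0.76 to 1.04 at 2 mg/kg. There Ugt2b38 ranged from -0.13 to 0.22, Ugt2b35 from -0.05 to 0.65 and Ugt1a6a from -0.45 to 0.01.

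The replicate numbers do not pair the libraries: deviations of same-numbered libraries correlated at -0.184 to 0.242 over 90 pairs, and 6 libraries correlated best with their own number. With the replicate block 8 members were called between the doses in b6j and 3 for the difference in response at 0.5 mg/kg, and the other counts were unchanged. Levels below 0.0851 to 0.112 CPM rest on fewer than 3 reads, which limits Ugt1a9 and Ugt2b35 in controls. The levels of Ugt1a2 in b6j controls, 0.0605 to 0.404 CPM, are limited in the same way.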
